A study of Mus musculus with 2 samples.

Results

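Nuclear genes for the respiratory chain and ATP synthase were examined for GATA4 binding at their promoters in mouse liver. They were taken as the GENCODE M21 protein-coding genes whose symbol begins with Nduf, Uqcr, Cox4 to Cox8 or Atp5, which gave 89 of 21827 genes. Of these, 38 encode complex I subunits, 8 encode complex I assembly factors (Ndufaf), 8 encode complex III subunits, 18 encode complex IV subunits and 17 encode subunits of ATP synthase. The symbols take in a few proteins at the edge of these groups, such as Ndufa4, counted here with complex I by its name but known as a complex IV subunit, and Cox7a2l, known for its part in joining respiratory complexes. Chromatin of whole liver from healthy adult mice, with sex recorded as not collected and age as unknown, was precipitated with a GATA4 antibody and the DNA was sequenced (ChIP-seq). There were 2 samples in 1 group, biological replicates 1 and 2 by label, with no untreated or mutant group. Both carried the same tissue and donor identifiers, so that a spread between them may be technical. Whole liver holds all the cell types of the organ, and no expression was measured, so these data do not tell which cells carried a bound promoter.

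The respiratory chain passes electrons from NADH through complex I, complex III and complex IV to oxygen, and ATP synthase uses the resulting proton gradient to make ATP. Apart from a few subunits encoded in mitochondrial DNA, all of these proteins come from nuclear genes, most of which are active in every tissue and have GC-rich promoters. The factors best known at these promoters are NRF1, the ETS-family factor GABP, SP1, YY1, CREB and the oestrogen-related receptors. GATA4 is a zinc-finger factor that binds the sequence WGATAR, which is GATA with A or T before it and A or G after it, and in adult liver it is best known from the sinusoidal endothelium.

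The deposited peak lists give for each peak a summit, its position of strongest signal, and a signal score without a unit. The score was compared only within 1 list. A promoter peak was a peak whose summit lay within 1 kb of a start site of the gene. The main list, deposited as optimal, had 24050 peaks on the assembled chromosomes, and a shorter list of the same run, deposited as conservative, had 9234. Thresholded lists of the single replicates came from a later run, with 4287 peaks in replicate 1 and 26314 in replicate 2. All of these lists were thresholded on the irreproducible discovery rate (IDR), an estimate of the share of peaks that would not repeat. A relaxed list per replicate, from the earlier run, with no such threshold and with a control file of its own, had 299786 peaks in replicate 1 and 299828 in replicate 2. Both relaxed lists are labelled as holding peaks and background, and each was deposited with 300000 lines. An entry in them, called a relaxed peak here, may thus be background, above all at late ranks. Read depth was not in these files and is unknown.

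The summits that carry the account are shown first, as the bases around them on the strand of the gene in build mm10 (GRCm38.p6), 5′ to 3′. The best ranked members with WGATAR within 50 bp of the summit were Cox7a1, Ndufa6, Uqcrq and Cox7c, and capitals mark WGATAR or its reverse complement. The windows of Uqcrq and Cox7c, and of Atp5g3 further on, are shortened because they run into exons.
Cox7a1 (chr7:30183938-30184038, plus strand): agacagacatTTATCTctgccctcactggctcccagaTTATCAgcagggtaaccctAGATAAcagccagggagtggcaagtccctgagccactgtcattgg
Ndufa6 (chr15:82354473-82354573, minus strand): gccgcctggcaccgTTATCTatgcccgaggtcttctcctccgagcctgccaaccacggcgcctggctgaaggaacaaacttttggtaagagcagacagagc
Uqcrq (chr11:53430405-53430498, minus strand): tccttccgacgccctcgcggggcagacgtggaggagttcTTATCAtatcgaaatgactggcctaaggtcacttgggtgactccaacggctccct
Cox7c (chr13:86046855-86046884, minus strand): tggcgcccggtaTTATCTaaactacaaagc
Cox7a1 has 3 such matches and the other 3 genes have 1 each, at 36 bp upstream of the summit in Ndufa6, 11 bp in Uqcrq and 22 bp in Cox7c, counted to the first base of the match. The Uqcrq window also holds AAGGTCA, the site of oestrogen-related receptors, in lower case. Among the best ranked members without WGATAR, Ndufa9, Atp5g3 and Ndufs5 are shown. Ndufa13 is not, since its window lies wholly in exons and holds none of the motifs searched. Capitals mark matches, on either strand, to GATA followed by A or G with any base before it, to an ETS core (GGAA with A or C before it and A or G after it) and to the NRF1 site, GCGC and TGCGC with any base between them.
Ndufa9 (chr6:126849110-126849210, minus strand): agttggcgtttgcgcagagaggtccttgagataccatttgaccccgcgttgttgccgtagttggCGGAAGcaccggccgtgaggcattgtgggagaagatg
Atp5g3 (chr2:73911297-73911371, minus strand): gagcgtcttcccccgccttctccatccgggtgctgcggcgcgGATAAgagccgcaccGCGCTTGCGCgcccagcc
Ndufs5 (chr4:123718217-123718317, minus strand): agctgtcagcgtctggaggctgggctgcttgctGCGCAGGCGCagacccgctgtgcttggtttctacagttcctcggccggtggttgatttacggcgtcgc
Atp5g3 has GATAA preceded by C, so that it is not WGATAR, with an NRF1 site downstream of it. Ndufa9 has an ETS core and Ndufs5 an NRF1 site. A match describes the letters in the window and does not show which protein was bound.

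GATA4 promoter peaks were more frequent at respiratory chain genes than at promoters of like GC, but most members had none, and the excess fell to within counting error when CpG content was matched as well. In the optimal list 35 of 89 members had a promoter peak, 39.3% (95% Wilson interval 29.8 to 49.7), against 22.4% of all protein-coding genes. Other genes weighted to the members' GC, measured over 500 bp each side of the main start site in bins of 5 points, gave 26.2%, so the members stood 13.1 points higher. When the other genes were weighted to both GC and the CpG ratio (the observed over the expected frequency of CpG), an alternative chosen after seeing the data, they gave 33.3%, which lies inside the members' interval, and the difference was 6 points. That weighting used wider GC bins, of 10 points, which without the CpG ratio gave a difference of 13.8 points. The intervals here cover counting error over genes only, and genes are not replicates of the experiment.

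The share differed widely between the replicates. Replicate 2's own thresholded list had a promoter peak at 43 members, 48.3% (38.2 to 58.5), against 27.6% of all genes and 32.5% at like GC. Replicate 1's list had 1 member, Cox7a1, which is 1.12% (0.199 to 6.09), against 1.52% of all genes and 1.66% at like GC. So the excess over like GC was 15.8 points in replicate 2 and -0.539 points in replicate 1. Of the 35 members of the optimal list, only 16 had even a relaxed promoter peak in replicate 1 (45.7%, against 54.9% over all genes). All 35 had one in replicate 2, as did 100% of such genes over all. The conservative list had 7 members, 7.87% (3.86 to 15.4), against 4.31% of all genes and 4.98% at like GC. The conservative list of the later run had 6 members, 6.74%, against 4.77% of all genes. The lower bound of the interval for the 7 lies below both shares, so an excess in the conservative list was not detectable with 89 genes. A second pooled list, from the later run, again held 35 members (39.3% against 21.9% of all genes), and 27 of them were among the 35 of the optimal list, 77.1% of each set, against 79.9% and 81.7% of the 2 sets over all protein-coding genes.

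**Figure D1:**
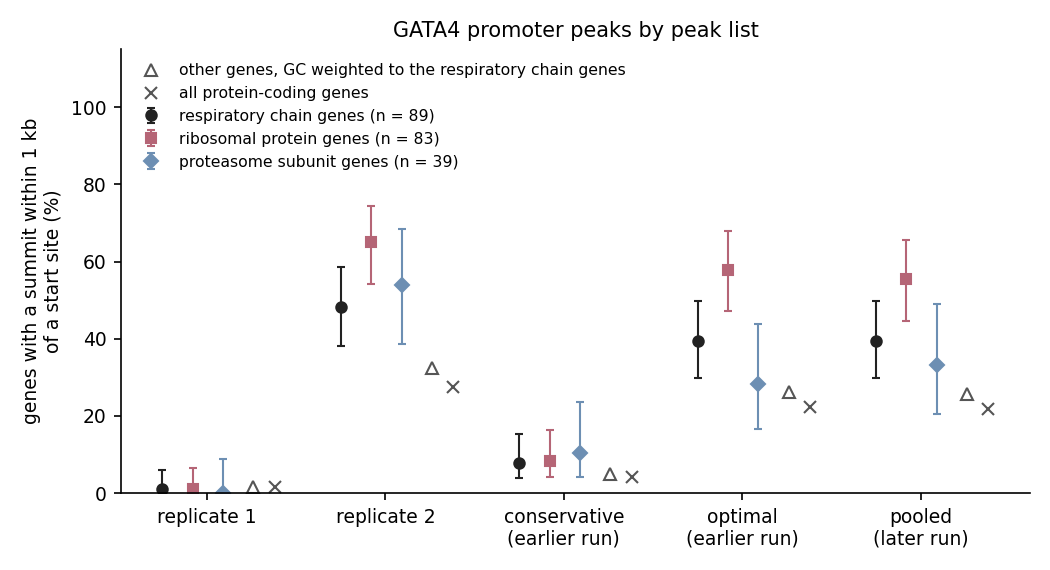
Percentage of genes with a GATA4 summit within 1 kb of a start site (y axis) in 5 peak lists (x axis). Filled symbols are gene groups with 95% Wilson intervals, triangles are other genes weighted to the GC of the respiratory chain genes, and crosses are all protein-coding genes. The respiratory chain genes stand at 39.3% in the optimal list against 26.2% at like GC, and at 1.12% in the list of replicate 1.

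Other housekeeping modules with promoters of nearly the same GC also gave promoter peaks, and their order against the respiratory chain genes differed between lists. Cytosolic ribosomal protein genes had a promoter peak in the optimal list at 48 of 83 genes, 57.8% (47.1 to 67.9), and proteasome subunit genes at 11 of 39, 28.2% (16.5 to 43.8). The interval of the respiratory chain genes (29.8 to 49.7) overlaps both, but the 57.8% of the ribosomal protein genes lies above it. Over other genes of like GC, the excess was 30.9 points at ribosomal protein genes and 2.31 points at proteasome genes. At respiratory chain genes it was 13.1 points. In replicate 2's list both modules stood above the 48.3% of the respiratory chain genes, at 65.1% (54.3 to 74.4) and 53.8% (38.6 to 68.4). Both intervals overlap that of the respiratory chain genes (38.2 to 58.5), but the ribosomal interval lies wholly above 48.3%. The excess over like GC in that list was 31.6 and 21.9 points, against 15.8 points for the respiratory chain genes. In the conservative list they stood at 8.43% and 10.3%. In replicate 1's list the counts were 1 and 0, the latter compatible with a share of up to 8.97%, in a list that held 1.52% of all genes.

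Complex I had promoter peaks at 16 of its 38 subunit genes in the optimal list, 42.1% against 22.4% of all genes. It had them at 21 in replicate 2's list (55.3% against 27.6%) and at 4 in the conservative list (10.5% against 4.31%). Ndufa9, an accessory subunit of the matrix arm, ranked 1862 of 24050 with a signal of 90.7, higher than 94.8% of genes with a promoter peak (chr6:126849099-126849268, 35 bp upstream of its start). Its relaxed signals were 14.1 in replicate 1 and 75.9 in replicate 2. The accessory subunit Ndufa6 ranked 4397 with a signal of 63.6 (chr15:82354474-82354577, 201 bp upstream), with relaxed signals of 8.3 and 54.2. Ndufs5, an accessory subunit, ranked 4487 with a signal of 63.0 (chr4:123718087-123718446, 65 bp upstream), with relaxed signals of 10.4 and 54.5. These 3 genes were in the conservative list, but Ndufa6 was not in the conservative list of the later run. Each of the 3 had a relaxed peak in both replicates.

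Ndufa13, an accessory subunit also known as a regulator of cell death, ranked 2901 with a signal of 76.5, but its assignment is less certain (chr8:69903184-69903358). The summit lay 728 bp upstream of Ndufa13, in an untranslated region of Tssk6, and nearer to the start of Yjefn3. Replicate 2 had this peak with a relaxed signal of 72.6, and replicate 1 had no relaxed promoter peak there. Ndufa7 shared its peak with the ribosomal protein gene Rps28, whose start was nearer (rank 8427, signal 44.7). Its relaxed ranks were 234878 in replicate 1 and 5904 in replicate 2. Ndufa12 followed at rank 10260 with a signal of 39.7 and no relaxed peak in replicate 1.

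The weakest complex I peaks lay at the core subunits Ndufs7, Ndufs3 and Ndufv2, which ranked 20870, 21157 and 22844, with signals of 22.6, 22.2 and 17.4. Ndufv2, the iron-sulphur subunit of the NADH-binding module, had the weakest peak of all 35 members. Of the 8 Ndufaf assembly factors only Ndufaf3 had a peak in the optimal list (rank 21981, signal 20.8), 12.5% against 22.4% of all genes. In replicate 2's list 3 had one, 37.5% against 27.6%. With 8 genes the share of the assembly factors is imprecise.

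Among complex III genes 3 of 8 had a promoter peak (37.5%, against 22.4% of all genes), and 5 did in replicate 2's list (62.5% against 27.6%). Uqcrq, a small membrane subunit, ranked 4927 with a signal of 60.3 (chr11:53430268-53430627). Its summit lay 14 bp upstream of the nearest start, and the relaxed signals were 13.2 in replicate 1 and 43.8 in replicate 2. Uqcrfs1, the Rieske iron-sulphur protein, ranked 9296 with a signal of 42.1, with a relaxed signal of 45.5 in replicate 2 and no relaxed peak in replicate 1. Its window held the palindromic CRE TGACGTCA. Uqcrc2, a core protein of the matrix side, ranked 15433 and was absent from replicate 2's thresholded list. Only Uqcrq of these 3 was in the conservative list.

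Complex IV had the 1 member found in both replicates' thresholded lists. Its 18 genes had 6 promoter peaks (33.3%) in the optimal list and 6 in replicate 2's list, against 22.4% and 27.6% of all genes. Cox7a1, the heart and muscle isoform of subunit VIIa (ENSMUSG00000074218.3, chr7:30183808-30184167), ranked 4271 with a signal of 64.5, 156 bp upstream of its start. It passed the threshold of both replicates' lists, with a signal of 20 in replicate 1 and 42.1 in replicate 2. Its relaxed ranks were 2835 in replicate 1 and 6139 in replicate 2. Its promoter had a CpG ratio of 0.277, against a median of 0.768 over the 35 members with a peak, of which Atp5j2 was also low at 0.219. Its 3 WGATAR matches are shown in the sequence above.

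The other genes counted as tissue-restricted isoforms had no promoter peak in any thresholded list. These were Cox4i2, Cox6a2, Cox6b2, Cox7b2, Cox8b, Cox8c and Ndufa4l2, isoforms known from lung, heart and skeletal muscle, testis or hypoxic cells. In the relaxed lists, which also hold background, Cox4i2, Cox6a2 and Cox6b2 had entries at ranks 280332, 143228 and 259351 in replicate 2. Cox8c had one at rank 270869 in replicate 1. Entries at such late ranks may not be binding. The group thus had 1 gene of 8 with a peak (12.5%), against 34 of the 81 other members (42.0%) and 22.4% of all genes. The median CpG ratio of these promoters was 0.328, against 0.735 in the other members. Cox7c, a small ubiquitous subunit, ranked 6585 with a signal of 51.4, its summit in the 5′ untranslated region 54 bp past the start (chr13:86046670-86047029). Its relaxed signals were 11.1 in replicate 1 and 39.0 in replicate 2. The remaining complex IV peaks, at Cox5a, Cox7a2, Cox6b1 and Cox6a1, had signals of 38.9, 34.5, 30 and 23.1.

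ATP synthase genes had peaks at 9 of 17 (52.9%) in the optimal list, the highest share of the 5 groups there, against 22.4% of all genes. In replicate 2's list they had 8 (47.1%), below complex III (62.5%) and complex I (55.3%) and against 27.6% of all genes. In the conservative list they had none, in a list that held 4.31% of all genes. Atp5g3, one of the genes for the c subunit of the membrane rotor, ranked 4387 with a signal of 63.6, and its summit lay 4 bp past the start (chr2:73911304-73911398). Replicate 2 had a relaxed signal of 60.0 there and replicate 1 had no relaxed promoter peak. The next, Atp5mpl, ranked 11132, and the other 7 lay between rank 13065 (Atp5c1, the gamma subunit) and rank 20769 (Atp5e, the epsilon subunit). The median signal percentile was 33.6 for the ATP synthase peaks and 52.8 for the complex I peaks, where 100 is the strongest gene with a promoter peak.

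**Figure D2:**
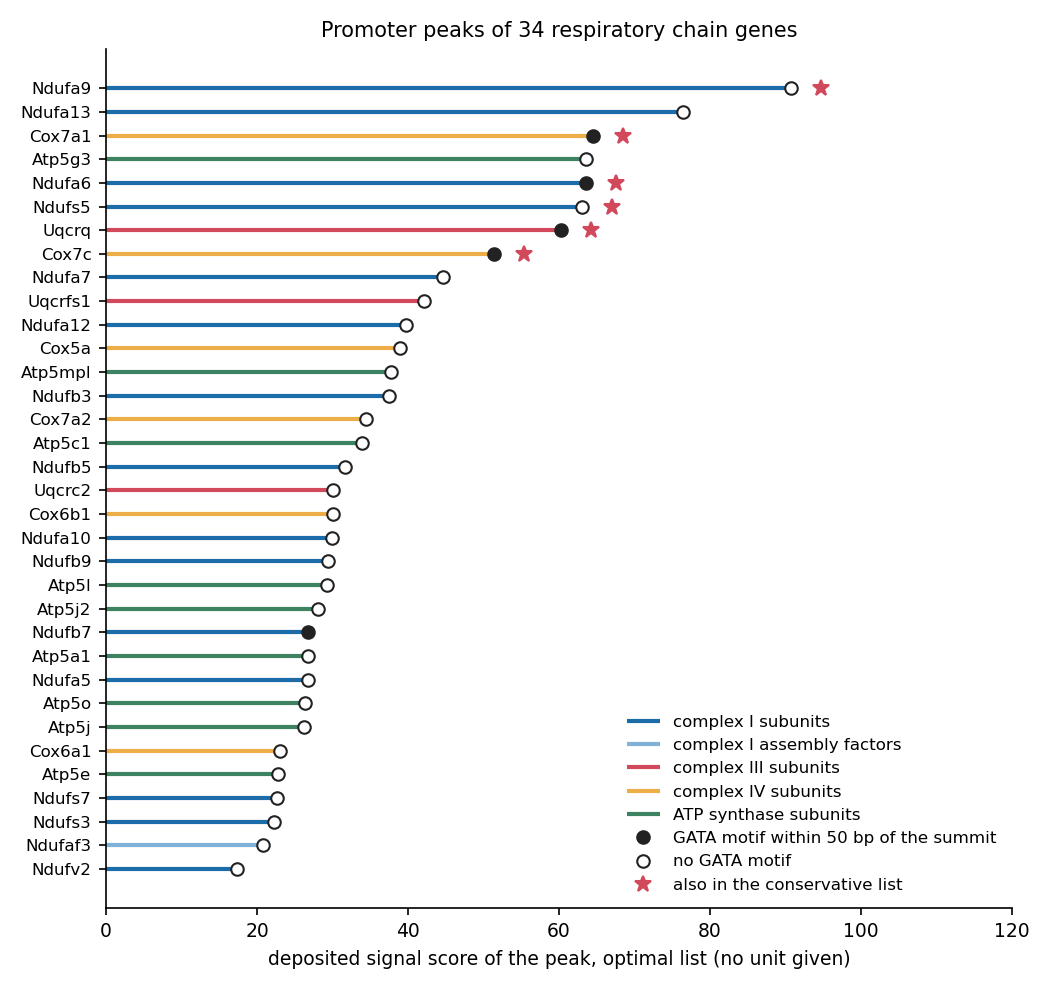
Deposited signal score (x axis, no unit given) of the promoter peak of 34 of the 35 respiratory chain genes with one in the optimal list, ordered by rank, with lines coloured by complex. Filled circles have WGATAR within 50 bp of the summit and stars mark 6 genes of the conservative list. Signals run from 90.7 at Ndufa9 to 17.4 at Ndufv2.

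The members without a peak in the optimal list numbered 54, of which 47 were not tissue-restricted. The first 12 of these in alphabetical order were Atp5b, Atp5d, Atp5f1, Atp5g1, Atp5g2, Atp5h, Atp5k, Atp5s, Cox4i1, Cox5b, Cox6c and Cox7a2l. They include the catalytic beta subunit of ATP synthase, Atp5b, and the largest nuclear subunit of complex IV, Cox4i1, which had relaxed ranks of 27285 and 42103 in replicate 2 and no relaxed peak in replicate 1. Atp5b and Atp5d, alone of the 12, had a promoter peak in the later pooled list. Atp5d and Atp5h passed the threshold of replicate 2's own list, with signals of 17.2 at both. Atp5k had a relaxed peak in replicate 1 only, at rank 283499. Of the 12, the best ranked relaxed peak was that of Cox7a2l, at rank 20262 in replicate 2. The Atp5g1, Atp5g2 and Atp5g3 genes encode the same mature c subunit, and of them Atp5g3 alone had a peak in the optimal list.

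The lists of both runs differed in their members, as they did over all genes. Of the 35 members of the optimal list 28 were in replicate 2's list (80%, against 86.5% over all genes), which held 15 members that the optimal list lacked. The 28 were 65.1% of the members in replicate 2's list, against 70.2% over all genes. The 7 that replicate 2's list lacked were Ndufb3, Atp5c1, Uqcrc2, Ndufa10, Atp5o, Atp5j and Ndufv2. In all, 50 members had a promoter peak in at least 1 of these 2 lists and 39 in neither. So 22 of these 50 were in only 1 of the lists (44.0%), against 36.7% of all protein-coding genes in either list.

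In the relaxed lists the contrast between replicates was wide. In replicate 2, 83 of 89 members had a relaxed promoter peak, 93.3% (86.1 to 96.9), against 66.0% of all genes and 74.3% at like GC. In replicate 1 there were 28, 31.5% (22.8 to 41.7), against 27.8% of all genes and 26.6% at like GC. The median rank of these peaks was 21823 in replicate 2 and 119756 in replicate 1, and over all genes 31872 and 108362. Both lists were of nearly equal length, so the members stood above all genes in replicate 2 and near them in replicate 1. Ribosomal protein and proteasome genes gave like values, with 95.2% and 92.3% in replicate 2 and 33.7% and 35.9% in replicate 1.

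Of the 7 conservative members 6 ranked better in replicate 1 than any other member. All 7 had a relaxed peak there, as did 21 of the 82 others, whose best rank was 17699 at Atp5o. Over all genes 935 of the 941 with a conservative promoter peak had one (99.4%), so this property was not peculiar to the respiratory chain genes. Ndufa6, at rank 31821, was the 1 of the 7 that ranked behind Atp5o. The conservative list was made from both replicates under an IDR threshold. A relaxed peak at a good rank in replicate 1 may thus follow from that selection and is no separate support for these peaks.

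**Figure D3:**
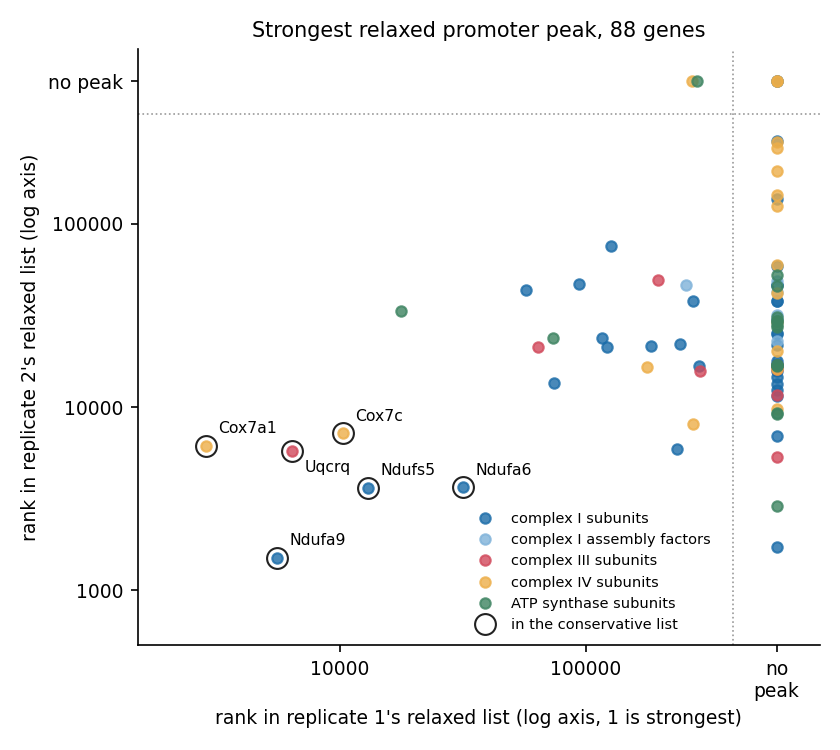
Rank of the strongest relaxed promoter peak of 88 of the 89 genes in replicate 1 (x axis) and replicate 2 (y axis), both on log axes where 1 is the strongest peak, with genes lacking a peak beyond the dotted lines. Circles mark 6 genes of the conservative list, which lie at ranks 2835 to 31821 in replicate 1, and 61 genes have no relaxed promoter peak in replicate 1.

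By signal the members' peaks were ordinary promoter peaks. Their median percentile among genes with a promoter peak in the optimal list was 45.0 (quartiles 28.3 and 75.5), against 50 for other genes and 50.6 for other genes of like GC. The median rank was 14397 against 13364. Peaks past rank 10000 made up 24 of the 35, 68.6%, against 65.4% of all genes with a promoter peak. The excess of members with a peak was thus not accompanied by a higher signal.

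Members' summits sat close to the start site. Of 35, 25 lay within 100 bp of a start site (71.4%), against 49.5% of 4848 other genes, and the median distance was 53 bp against 102 bp. These other genes were not weighted to like GC. Ribosomal protein and proteasome genes were not set apart, so closeness to the start may not be particular to the members. By annotation, 12 summits lay outside genes, 19 in an untranslated region, 3 in introns and 1 in a coding exon. No member had more than 1 promoter peak in the optimal list. Neither count has a share over all protein-coding genes beside it, so whether they are particular to the members is unknown.

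**Figure D4:**
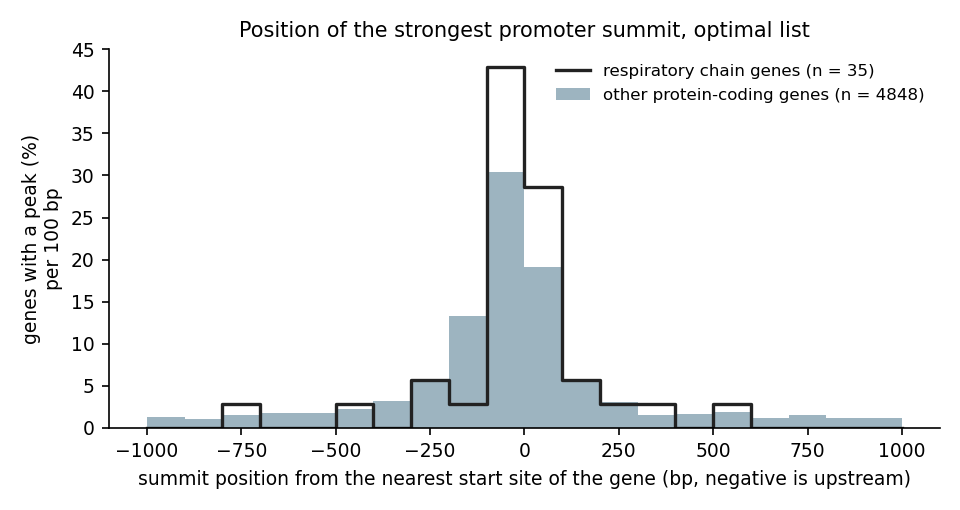
Position of the strongest promoter summit relative to the nearest start site of its gene (x axis, bp, negative is upstream) in bins of 100 bp, as the percentage of genes with a peak (y axis). The line is the 35 respiratory chain genes and the bars are 4848 other genes; 71.4% of the former and 49.5% of the latter lie within 100 bp.

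Some of these promoters are shared with a neighbour. The summits of 10 of the 35 also lay within 1 kb of a start site of another gene, and 4 (Ndufa13, Ndufa7, Atp5j and Ndufs3) were nearer to it. Among them Atp5j shared its peak with Gabpa, which encodes the DNA-binding subunit of GABP, and Ndufb5 shared its peak with the mitochondrial ribosomal gene Mrpl47. The other neighbours were Fam126b (Ndufb3), Kin (Atp5c1), Tatdn1 (Ndufb9), Haus1 (Atp5a1), Asb15 (Ndufa5) and Kbtbd4 (Ndufs3). A gene starting on the opposite strand within 1 kb was present at 28 of the 89 members, 10 of the 35 with a peak and 18 of the 54 without. Sharing was not counted over all protein-coding genes, so whether it is particular to the members is unknown. Counting each summit only for the nearest gene left 31 members, 34.8%, which was 11.1 points above other genes of like GC counted the same way.

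Base composition differed little between members with and without a peak. The median promoter GC was 56.7% in the 35 with a peak and 56.3% in the 54 without, and the median CpG ratio was 0.768 and 0.702. In the other genes these medians were 58.9% and 53.5%, and 0.753 and 0.449. So the members without a peak resembled, in CpG ratio, other genes with one.

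GATA motifs were no more frequent at members' summits than at other promoter summits. Within 50 bp of the summit, on both strands, WGATAR was present at 5 of 35 member summits, 14.3% (6.26 to 29.4), against 25.8% of 5158 other promoter summits, 25.2% at like GC of the window and 25.7% of all promoter summits. In equally long windows centred 500 bp from the member summits on either side it was present in 12.9%. The intervals of the members include all of these values. AGATAA alone was present at 8.57% of member summits, 11.0% at like GC and 12.4% of all promoter summits. With any first base, a motif chosen after seeing the windows and one that includes WGATAR, the share was 28.6% (16.3 to 45.1) against 33.5% at like GC, 33.3% of all promoter summits and 17.1% in the members' flanks.

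The matches were gathered at the members of the conservative list. WGATAR was present at 4 of the 7 conservative members (57.1%), namely Cox7a1, Ndufa6, Uqcrq and Cox7c, and at 1 of the other 28 (3.57%), Ndufb7, whose peak ranked 17769. Among optimal-list promoter summits of other genes the shares were 51.9% of 1130 at genes of the conservative list and 18.5% of 4028 at the rest. These count summits by their gene, whether or not the summit itself was in the conservative list. The conservative members thus had WGATAR about as often as promoter summits at other genes of the conservative list. The reversal in sign against like GC in that list (6.53 points, against -11.0 in the optimal list) rests on 7 summits. In the conservative list of the later run, which lacks Ndufa6, 3 of 6 member summits had WGATAR. The difference from like GC was -0.372 points there.

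Motifs of the factors known at respiratory chain promoters were mixed. The SP box GGGCGG was present at 6 summits, 17.1% (8.10 to 32.7), against 27.8% at like GC and 30.5% of all promoter summits, among them Ndufa12, Cox5a, Cox7a2, Ndufb9 and Ndufs3. An ETS core was present at 20 summits, 57.1% (40.9 to 72.0), against 44.8% at like GC, 42.3% of all promoter summits and 27.1% in the members' flanks. The like-GC value lies inside the interval. The sign of the ETS difference also depended on the choices, at 12.3 points in the optimal list, -2.82 points in the later pooled list and -2.63 points with the stricter CCGGAAG, a sequence that overlaps the ETS core and was present at 3 summits (Cox6b1, Ndufb9 and Ndufs3) and at 10.2% of all promoter summits.

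NRF1 sites were present at 3 member summits, 8.57% (2.96 to 22.4), namely Atp5g3, Ndufs5 and Atp5o, against 3.65% at like GC and 4.14% of all promoter summits, and in 0 of the 70 flanks. The receptor site AAGGTCA was present at Uqcrq, Atp5mpl and Ndufv2, again 8.57%, against 1.70% at like GC and 1.83% of all promoter summits, and equally in 8.57% of the members' own flanks. The CRE TGACGTCA was present at Uqcrfs1 and Ndufa10 (5.71% against 1.44% at like GC and 1.50% of all), and the NFY box CCAAT at Cox7a1 and Cox6b1 (5.71% against 16.5% and 14.8%). The YY1 site AANATGGCG was at none of the 35, which allows a share of up to 9.89%, against 1.71% of all promoter summits. A control motif, TATGC with A or T before it, was present at 1 member summit (2.86%) and at 2.41% of all promoter summits. Counts this small leave wide intervals, and these motif windows were listed for all 11 motifs searched and 1 added.

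**Figure D5:**
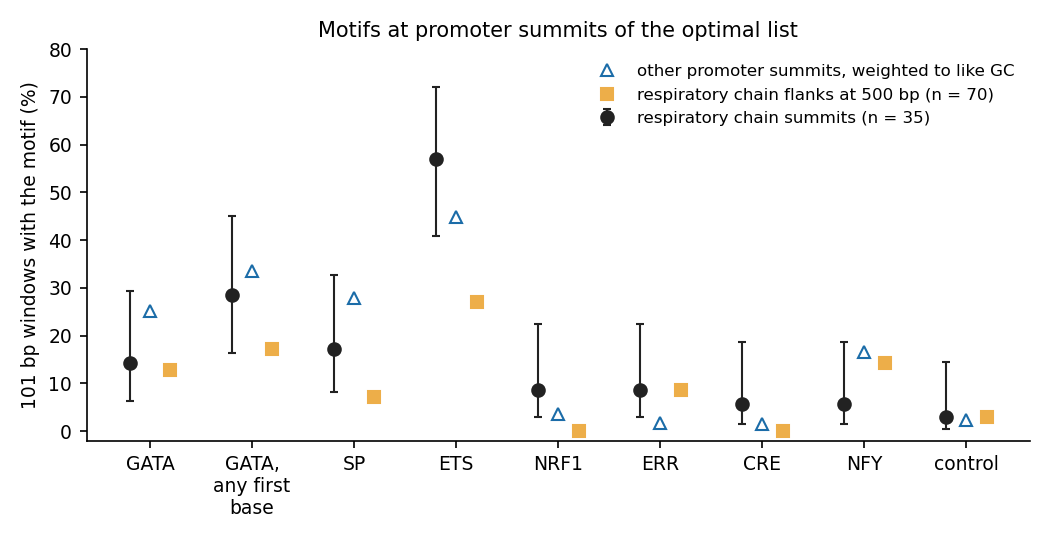
Percentage of windows with each motif on either strand within 50 bp of their centre (y axis). Circles are the 35 respiratory chain summits of the optimal list with 95% Wilson intervals, triangles are other promoter summits weighted to like GC, and squares are windows centred 500 bp from the respiratory chain summits. GATA stands at 14.3% against 25.2% at like GC, and ETS at 57.1% against 44.8%.

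The motifs were also counted in the promoters themselves, with or without a GATA4 peak. From 250 bp upstream to 50 bp downstream of the main start site, NRF1 sites were present in 14 of 89 members, 15.7% (9.61 to 24.7), against 6.16% of all promoters and 6.36% at like GC. They were found in 14.3% of members with a peak and 16.7% of those without. An ETS core was present in 71.9% of members and 65.5% of all promoters, the SP box in 41.6% and 44.9%, the YY1 site in 6.74% and 3.10%, and AAGGTCA in 10.1% and 4.03%. AAGGTCA was present in 17.1% of members with a peak (6 of 35) and 5.56% of those without (3 of 54), and AGATAA, present in 10% of all promoters, had the same counts. WGATAR was present in 28.1% of members (19.8 to 38.2) and 27.0% of all promoters, in 28.6% of members with a peak and 27.8% of those without. So the presence of WGATAR in this window did not separate members with a peak from members without.

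Other genes of oxidative phosphorylation, from lists of known roles, gave promoter peaks at shares on both sides of that of the members. Of 8 genes of complex II and its assembly 5 had one, the strongest at Sdhd, a membrane anchor of succinate dehydrogenase (rank 5229, signal 58.4), followed by Sdhaf3, Sdhb and Sdhaf4 at ranks 15558, 20325 and 22469. Of 8 electron carriers and their enzymes 3 did, namely Etfb, a subunit of the electron transfer flavoprotein (rank 2283), Sqor, the sulphide:quinone oxidoreductase (rank 3923), and Etfdh (rank 21108). Sqor was also in replicate 1's list, as Cox7a1 was among the members. Assembly genes of complexes III, IV and V had peaks at 10 of 25, with the strongest at Cox16 (rank 598, signal 128.2), Sco1 (rank 3197), Cox11 (rank 5988) and Sco2 (rank 8132). Of 7 other complex I assembly genes only Foxred1 had one in the optimal list (rank 4585), although 6 did in replicate 2's list, which held 27.6% of all genes.

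Regulators of these genes had peaks at 6 of 11. The strongest were at Pprc1, a coactivator related to PGC-1alpha (rank 3175), Sp1 (rank 8340), Gabpb2 (rank 13362) and Gabpa (rank 18201, the peak shared with Atp5j). Of 8 genes for mitochondrial DNA transcription and copying 3 had one, at Tfam, the mitochondrial transcription and packaging factor (rank 2112, signal 86.7), Polg, the DNA polymerase (rank 5341), and Tfb2m (rank 10074). With 7 to 25 genes a list, these counts are descriptions beside the 22.4% of all genes.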

How the data were processed

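GATA4 ChIP-seq peak lists of 2 liver samples were used. The authors deposited, per the README tables with the samples, mm10 peak lists of an earlier run (optimal, conservative and relaxed) and of a later run (thresholded lists per replicate and pooled, and a second conservative list). For these lists an aligner or a peak caller is not given in the sources used here. Signal score, as deposited, has no stated unit. The deposited IDR score reads from its values as a log of the IDR, with a threshold near 0.05.

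Summits were set against GENCODE M21 basic protein-coding genes (41433 start sites) on chromosomes 1 to 19, X and Y, and sequence was read from GRCm38.p6, with python 3.11.15, numpy 2.4.6, pandas 2.3.3, scipy 1.17.1 and matplotlib 3.10.9. Genes were counted by symbol. Atp5o has 2 identifiers, so 89 symbols stand for 90. Like-GC values weight other genes or summits to the members in bins of 5 points with at least 20 others each. The weighting to GC and CpG ratio together used GC bins of 10 points, each divided by the ratio. No test was run, since the members are not replicates and 1 group allows no comparison of conditions. Linking, motif search and weighting were tested on simulated data. Depth is unknown, so Wilson intervals cover counting over genes or summits only.

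The members and lists were chosen with earlier results of these data known. Named were the 12 best ranked members, those in replicate 1's or the conservative list, all tissue-restricted isoforms, up to 12 other members without a peak in alphabetical order, and up to 4 genes of each other list; further names in motif counts, list differences and shared promoters were chosen after seeing values. Psmc3ip, which encodes no proteasome subunit, was removed from that list by a changed symbol rule. Some items that this rule names are withheld and not reported here, although totals count them. No sequence from chromosome 18 is printed, and the mm9 and the ranked lists were not used here. Alternatives were other lists, an IDR of 0.01, summits within 500 or 2500 bp, other start sites and genes, other GC measures, wider motif windows and other motifs.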

Additional observations from a re-analysis of the deposited data

How the results depend on the processing

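The share of members with a promoter peak, 39.3% as reported, ranged from 1.12% without replicate 2 to 48.3% without replicate 1, each time from the remaining replicate's own list. It was 7.87% in the conservative list of the earlier run, 6.74% in that of the later run (an alternative chosen after seeing the data) and 23.6% at an IDR of 0.01, lists with fewer peaks. It moved by less than its interval under the 7 other alternatives. The difference from promoters of like GC, 13.1 points as reported, was -0.539 points without replicate 2 and 15.8 points without replicate 1. It was 2.89 points in the conservative list of the earlier run, 1.17 points in that of the later run, 7.05 points at an IDR of 0.01 and 6 points with GC and CpG ratio together. The GATA difference, -11.0 points as reported, was 6.53 points in the conservative list of the earlier run and negative under the 14 other alternatives. The ETS difference, 12.3 points as reported, was -2.82 points in the later pooled list and -2.63 points with CCGGAAG, and the cause was not tested. It was positive under the 12 other alternatives. The SP difference stayed negative under all 13 alternatives run, and the median percentile, 45.0 as reported, stayed between the members' quartiles under all 11. With replicate 1's list alone, 1 member summit allowed no motif or rank value. The peak lists hold no read counts, so the part of depth in the gap between replicates was not tested.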

Other observations

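Between 1 and 10 kb of a member, and not within 1 kb of any protein-coding start site, the optimal list held 20 summits near 14 of the 89 members (15.7%), against 18% of other genes. WGATAR lay within 50 bp of 12 of these 20 summits (60.0%), against 59.5% of 4863 such summits at other genes and 14.3% of the members' promoter summits. The best ranked were near Ndufa6 (rank 2853, 7193 bp away), Uqcrq (rank 2885, 1015 bp away, with 2 WGATAR matches), Cox5b (rank 3446, 7186 bp away and nearer to Fam178b) and Atp5h (rank 3520, 5079 bp away). The Uqcrq summit lay just past the promoter distance of 1 kb. Of the 54 members without a promoter peak 6 had such a summit, so 41 of the 89 members (46.1%) had a promoter peak or such a summit, against 33.6% of all protein-coding genes. These genes were named after their ranks were seen.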
